A study of Homo sapiens with 12 samples.

Results

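The genes described here make up the antigen presentation pathways of MHC class I and class II, 35 listed genes in all, chosen by name and function and not by their values. Of these, 33 had a probe set that named no other gene, 15 of the 16 listed for class II and 18 of the 19 listed for class I, among 19775 genes with such a probe set. Where a gene had several, the brightest on average over the 12 arrays stood for it. PSME2 was read only by a probe set that also named the microRNA gene MIR7703 and is given apart, and IFI30 was not analysed here. The values come from U937, a human monocytic cell line, in 4 groups of 3 arrays. EVI1-labelled cells had been transduced with a vector for EVI1, a zinc finger transcription factor of leukaemia encoded at MECOM, and the comparison cells with the empty vector. Each population was kept for 24 h in TPA at 50 ng/ml or in its solvent ethanol. TPA is a protein kinase C activator that makes monocytic cells take on macrophage features. The groups were thus EVI1-labelled cells in TPA, EVI1-labelled cells in ethanol, empty vector cells in TPA and empty vector cells in ethanol. The promoter of the vector, and whether a population was a clone or a pool, are not given in the sources used here.

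MHC class I molecules are a heavy chain paired with beta-2-microglobulin, and they show peptides cut in the cytosol to CD8 T cells. The immunoproteasome cuts the peptides, the TAP transporter carries them into the endoplasmic reticulum, ER aminopeptidases trim them, and tapasin with its chaperones loads them. MHC class II molecules are alpha and beta chain pairs of professional antigen presenting cells. They travel with the invariant chain CD74 to endosomes, where HLA-DM exchanges its remnant for a peptide from engulfed protein and HLA-DO restrains HLA-DM. Transcription of class II genes depends on the co-activator CIITA, which is recruited by the RFX complex of RFX5, RFXAP and RFXANK, and NLRC5 has the matching part for class I. Both pathways are raised by interferon gamma, and monocytic cells carry class I at all times and class II to varying degrees.

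All values are log2 signals after robust multi-array averaging, so a difference of 1 is a factor of 2. The median signal of an array lay between 5.07 and 5.11, and the lower figure is used here, as a choice made after the values were seen, to mark dim genes. The setting named dim genes left out below is another cut, at the median of all gene means, 6.12. Arrays of the same group correlated at 0.993 to 0.998 across genes, and 3 arrays a group limit the precision. The 5 probe sets for MECOM read between 2.59 and 3.32 in all 12 arrays and none passed between the populations, with smallest adjusted p-values of 0.118 after TPA and 0.901 in ethanol. Whether these probe sets read the transduced transcript was not tested, and the population is called EVI1-labelled throughout. The 3 prime minus 5 prime signal gap of ACTB, a sign of RNA integrity and labelling, was 1.31 ± 0.17 in the TPA arrays and 1.85 ± 0.13 in the ethanol arrays (SD, n = 6 each, exact two-sided permutation p = 0.00216), and its part in the differences with TPA was not tested. Of 13 measured myelomonocytic marker genes 12 were above 5.07 in at least 1 group. By the limma test defined below, 7 of the 13 rose and 2 fell with TPA in EVI1-labelled cells, with differences from -1.63 to 5.04. In empty vector cells 9 rose and 3 fell, with differences from -1.29 to 5.49. Of all genes 40% were called in EVI1-labelled cells and 43.2% in empty vector cells. Bright genes weigh most in the summed signal of the 13. Its log2 was 14.43 to 14.79 in TPA and 13.45 to 13.70 in ethanol in EVI1-labelled cells. In empty vector cells it was 14.62 to 14.95 in TPA and 13.53 to 13.70 in ethanol. The class II and class I differences with TPA described next, in either direction, come from the same arrays as that shift, and its part in them was not tested.

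Short motifs linked to class I and class II transcription were searched for in the promoters of these genes. Printed here are 4 windows that hold some of them, a pair from each class taken from genes to which the results return. Each runs from 250 bases before to 50 bases after the gene's start, from RefSeq on GRCh38.p14, and 30 of the 35 genes matched the table, with 41 windows. In class II windows capitals mark the Y box as ATTGG, the RFX motif as GCAAC and the X2 box as TGACG, on either strand. TGACG is the only form of the X2 box searched for, and neither class II window printed holds it. HLA-DRB1 lies at chr6:32589799-32590098 and HLA-DMA at chr6:32953048-32953347, both on the minus strand.
HLA-DRB1: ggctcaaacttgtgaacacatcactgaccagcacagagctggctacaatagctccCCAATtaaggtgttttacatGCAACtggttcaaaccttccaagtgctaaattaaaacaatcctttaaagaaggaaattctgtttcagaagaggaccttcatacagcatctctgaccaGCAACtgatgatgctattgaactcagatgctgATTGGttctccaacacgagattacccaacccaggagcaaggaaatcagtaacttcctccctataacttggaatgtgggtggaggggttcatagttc
HLA-DMA: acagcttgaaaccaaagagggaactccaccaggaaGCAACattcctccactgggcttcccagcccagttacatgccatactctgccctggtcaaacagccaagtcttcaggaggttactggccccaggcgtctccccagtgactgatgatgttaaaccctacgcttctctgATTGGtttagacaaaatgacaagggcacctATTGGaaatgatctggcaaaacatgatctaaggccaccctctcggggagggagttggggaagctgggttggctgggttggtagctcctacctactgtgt
In the class I windows capitals mark the interferon element, which is TTTC, any 2 bases and TTTC, and the NF-kB motif GGGNNTTCC on either strand. TAP1 lies at chr6:32853655-32853954 on the minus strand and B2M at chr15:44711267-44711566 on the plus strand.
TAP1: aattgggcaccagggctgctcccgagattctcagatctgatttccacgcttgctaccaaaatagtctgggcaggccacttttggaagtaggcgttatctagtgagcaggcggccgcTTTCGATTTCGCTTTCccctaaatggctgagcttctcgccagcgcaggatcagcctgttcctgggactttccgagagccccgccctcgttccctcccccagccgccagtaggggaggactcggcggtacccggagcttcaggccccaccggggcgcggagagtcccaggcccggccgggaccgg
B2M: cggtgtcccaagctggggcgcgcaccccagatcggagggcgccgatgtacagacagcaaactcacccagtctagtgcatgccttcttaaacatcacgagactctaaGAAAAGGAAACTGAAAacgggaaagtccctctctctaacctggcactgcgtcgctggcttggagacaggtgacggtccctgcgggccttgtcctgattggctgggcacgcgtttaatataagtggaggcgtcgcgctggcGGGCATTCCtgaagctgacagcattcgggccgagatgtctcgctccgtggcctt
The interferon element was found on 2 overlapping stretches in TAP1 and likewise in B2M. The table holds a second window for TAP1, from another start, with 0 matches to any of these motifs. The interferon element was present in 11 of 22 class I windows (50%) and 1 of 19 class II windows (5.26%), against 3.57% of all 35116 windows. The NF-kB motif was in 5 of 22 class I windows (22.7%), 1 of 19 class II windows (5.26%) and 6.58% of all windows. The Y box was in 11 of 19 class II windows (57.9%), 9 of 22 class I windows (40.9%) and 34.6% of all. The X2 letters TGACG were in 9 of 19 class II windows (47.4%), 6 of 22 class I windows (27.3%) and 24.6% of all, and the RFX motif was in 7 of 19 (36.8%), 5 of 22 (22.7%) and 33.6%. These are matches of letters and not sites of binding. The TAP1 and PSMB9 windows run in opposite directions and share 13 bases.

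The signal of every gene on every array is shown in the plot of levels.

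**Figure D1:**
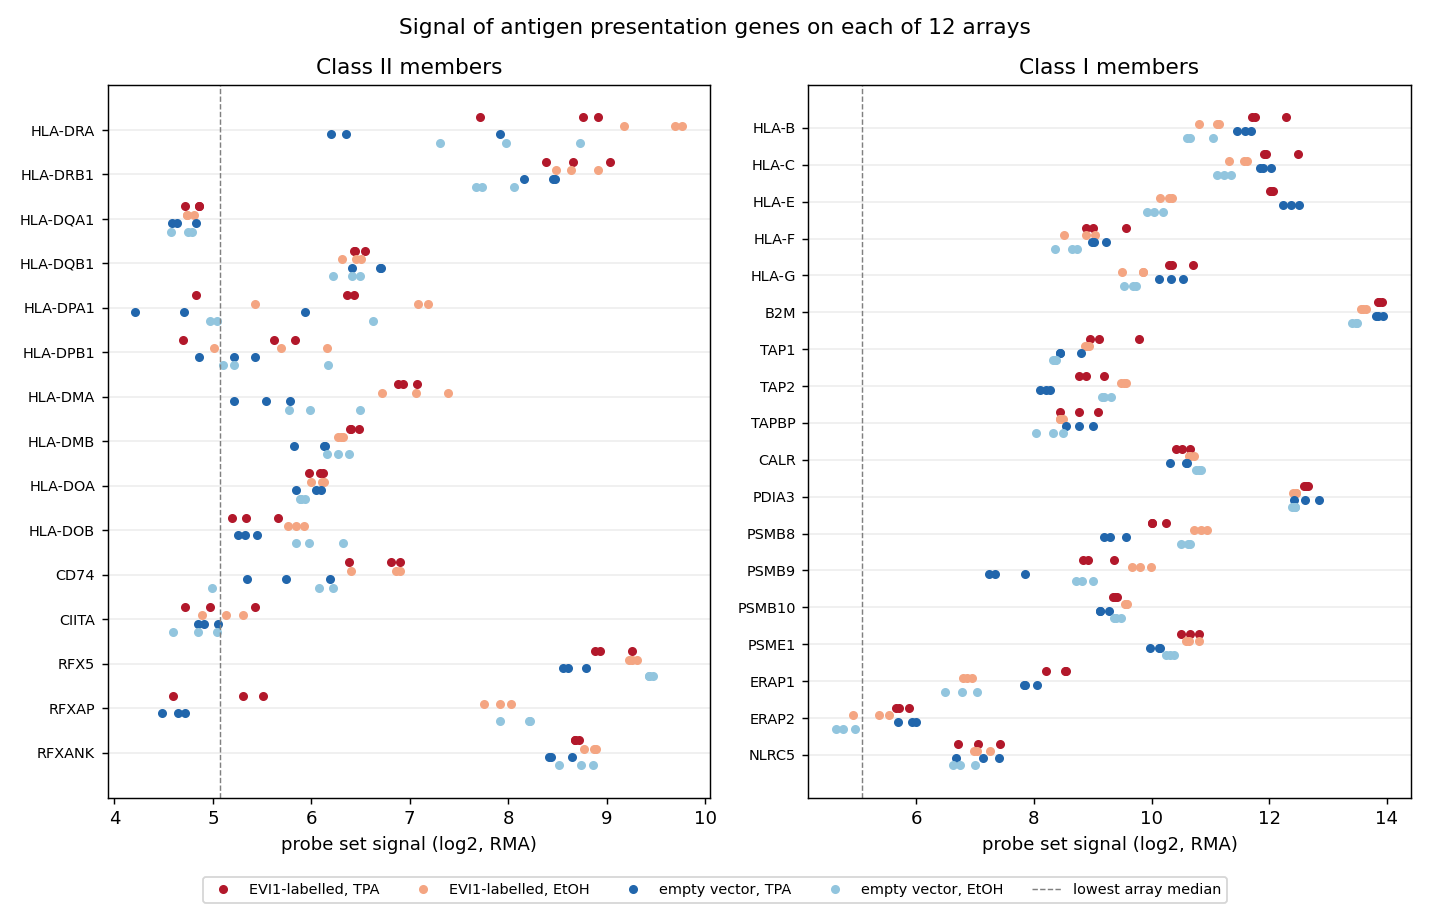
Signal of each gene (log2, robust multi-array averaging) on each of the 12 arrays, class II at left and class I at right, with a point per array coloured by group and a dashed line at the lowest array median, 5.07. HLA-E and ERAP1 lie apart by treatment, HLA-DMA and PSMB9 apart by population within each treatment, and the points of HLA-DRA and HLA-DPA1 are spread widely within each group.

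TPA lowered the class II regulator RFXAP and the class I loading and proteasome genes TAP2, PSMB8 and PSMB9 in both populations, and raised HLA-B, HLA-C, HLA-E, HLA-G, B2M, ERAP1 and ERAP2 in both. Among the 15 class II genes 0 rose and 2 fell in EVI1-labelled cells, and 1 rose and 5 fell in empty vector cells. Among the 18 class I genes 7 rose and 3 fell in EVI1-labelled cells, and 9 rose and 5 fell in empty vector cells. Of all 19775 genes 40% changed in EVI1-labelled cells (19.4% higher, 20.6% lower) and 43.2% in empty vector cells (20.7% higher, 22.5% lower), by limma with Benjamini-Hochberg adjustment over all genes at an adjusted p under 0.05, which is the meaning of a call below. The class II count in EVI1-labelled cells, 2 of 15, was below that background, and the class II count in empty vector cells, 6 of 15, was near it. The class I counts, 10 of 18 in EVI1-labelled cells and 14 of 18 in empty vector cells, were above it. Arrays of the treatments did not overlap for 5 class II and 13 class I genes in EVI1-labelled cells (46.6% of all genes) and for 5 and 16 in empty vector cells (50.3% of all genes). In such bulk RNA more cells with a transcript and more transcript per cell cannot be told apart. The median difference with TPA was -0.10 for class II, 0.30 for class I and 0.003 for all genes in EVI1-labelled cells, and in empty vector cells it was -0.24 for class II, 0.35 for class I and 0.02 for all genes.

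HLA-DRA encodes the invariant alpha chain that pairs with every HLA-DR beta chain. It read 8.91, 7.71 and 8.76 in TPA and 9.70, 9.18 and 9.77 in ethanol in EVI1-labelled cells, replicates 1 to 3 in order here and below. It read 7.92, 6.20 and 6.35 in TPA and 8.73, 7.31 and 7.98 in ethanol in empty vector cells. The treatments overlapped in empty vector cells and did not in EVI1-labelled cells, and the adjusted p-values fell on either side of 0.05. The difference was -1.09 ± 0.45 (SE, adjusted p = 0.0712) in EVI1-labelled cells and -1.18 ± 0.45 (adjusted p = 0.0466) in empty vector cells. In EVI1-labelled cells it passed with the mean of its probe sets (-1.12 ± 0.40, adjusted p = 0.0392), when the compared groups were fitted alone (adjusted p = 0.0179) and when empty vector TPA replicate 1 was left out (adjusted p = 0.0222). A further HLA-DRA probe set also fell there, by 1.15 ± 0.35 (adjusted p = 0.0197). With the replicate number as a block the EVI1-labelled difference passed too (-1.09 ± 0.25, adjusted p = 0.00323). The empty vector call was lost in 7 of 12 fits that each left out 1 array, namely any ethanol replicate of EVI1-labelled cells, TPA replicate 2 or 3 of empty vector cells, or their ethanol replicate 1 (adjusted p = 0.205, the highest) or 3. It was also lost with quantile normalization again (adjusted p = 0.0522) and when the compared groups were fitted alone (adjusted p = 0.0532).

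HLA-DRB1, the most widely expressed HLA-DR beta chain, went the other way in empty vector cells. It read 8.66, 8.38 and 9.03 in TPA and 8.64, 8.49 and 8.91 in ethanol in EVI1-labelled cells, so the treatments overlapped there. It read 8.46, 8.48 and 8.16 in TPA and 8.06, 7.67 and 7.73 in ethanol in empty vector cells, where the lowest TPA array stood above the highest ethanol array. It rose by 0.55 ± 0.17 (SE, adjusted p = 0.0145) in empty vector cells, and its difference in EVI1-labelled cells was 0.01 ± 0.17 (adjusted p = 0.973). The empty vector call was lost when empty vector TPA replicate 1 or 2 or ethanol replicate 2 or 3 was left out, with an adjusted p of up to 0.0625. The beta chains of the HLA-DR genes are near-identical, and their probe sets may read several of them. Probe sets naming HLA-DRB1 with other genes were mixed with TPA, in a fit over all probe sets. A dim one fell by 0.80 in EVI1-labelled cells (adjusted p = 0.00116) and had a difference of 0.05 in empty vector cells. In empty vector cells others rose by 0.65 (adjusted p = 0.026) and 0.78 (adjusted p = 0.0127), and another did not pass (0.45, adjusted p = 0.0627).

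The other class II chains did not pass the test with TPA in either population. HLA-DPA1, the HLA-DP alpha chain, read 6.43, 4.83 and 6.36 in TPA and 7.08, 5.43 and 7.19 in ethanol in EVI1-labelled cells, and 5.94, 4.21 and 4.71 in TPA and 6.63, 4.97 and 5.04 in ethanol in empty vector cells. Its SE of 0.59 was the widest of the 33 genes. HLA-DPB1, its beta chain partner, lay between 4.70 and 6.17 over all groups and the treatments overlapped. HLA-DQA1 stayed below 5.07 on all 12 arrays and HLA-DQB1 between 6.22 and 6.71.

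Among the genes that act on class II loading, HLA-DOB fell in both populations. It read 5.34, 5.19 and 5.66 in TPA and 5.84, 5.76 and 5.93 in ethanol in EVI1-labelled cells, and its difference was -0.45 ± 0.13 (SE, adjusted p = 0.0148). It read 5.26, 5.33 and 5.45 in TPA and 6.32, 5.98 and 5.84 in ethanol in empty vector cells, a difference of -0.70 ± 0.13 (adjusted p = 0.000538). In neither population did the treatments overlap, and the EVI1-labelled call was lost when their TPA replicate 2 (adjusted p = 0.0736) or ethanol replicate 3 (adjusted p = 0.0568) was left out. HLA-DMA, a chain of the peptide exchange catalyst, fell by 0.57 ± 0.20 in empty vector cells (adjusted p = 0.0289), and its difference in EVI1-labelled cells was -0.10 ± 0.20 (adjusted p = 0.77). The call was lost when empty vector TPA replicate 1 or 3 or ethanol replicate 1 was left out (adjusted p up to 0.152). HLA-DMB, the other HLA-DM chain, had differences of 0.13 ± 0.10 in EVI1-labelled cells and -0.24 ± 0.10 in empty vector cells, and HLA-DOA of -0.02 ± 0.09 in EVI1-labelled cells and 0.09 ± 0.09 in empty vector cells, none of which passed. For HLA-DMB in empty vector cells the same difference passed with dim genes left out (adjusted p = 0.0299) and in the fit of mean probe sets (adjusted p = 0.0448). Only 1 probe set reads HLA-DMB alone, so its values were the same in these fits. CD74, the invariant chain, had differences of -0.02 ± 0.29 in EVI1-labelled cells and -0.003 ± 0.29 in empty vector cells.

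The strongest change of a class II gene with TPA was that of RFXAP, the RFX-associated protein. It read 5.31, 5.51 and 4.60 in TPA and 8.03, 7.92 and 7.75 in ethanol in EVI1-labelled cells. It read 4.72, 4.65 and 4.48 in TPA and 8.22, 7.92 and 8.21 in ethanol in empty vector cells. All 6 ethanol arrays stood far above all 6 TPA arrays, of which 4 were below 5.07. The fall was 2.76 ± 0.18 on the log2 scale (SE, adjusted p = 2.2e-08) in EVI1-labelled cells and 3.50 ± 0.18 (adjusted p = 1.67e-09) in empty vector cells. A dimmer probe set of RFXAP also fell, by 0.49 in EVI1-labelled cells and by 0.57 in empty vector cells. RFX5, the DNA-binding subunit, fell by 0.79 ± 0.10 in empty vector cells (adjusted p = 1.33e-05) and had a difference of -0.24 ± 0.10 in EVI1-labelled cells (adjusted p = 0.074). RFXANK, the ankyrin repeat subunit, had differences of -0.15 ± 0.10 in EVI1-labelled cells and -0.21 ± 0.10 in empty vector cells that did not pass. CIITA lay between 4.60 and 5.43 on the 12 arrays and did not pass, while 1 of its other probe sets, also dim, fell by 0.34 in EVI1-labelled cells and 0.43 in empty vector cells.

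The class I molecules moved upward with TPA. All 6 rose in empty vector cells and 5 of 6 in EVI1-labelled cells, where HLA-F had a difference of 0.34 ± 0.17 (SE, adjusted p = 0.157). With the mean of its probe sets HLA-F also rose in EVI1-labelled cells, by 0.33 ± 0.11 (adjusted p = 0.0206). HLA-E, which presents leader peptides to NK cell receptors, changed most. It read 12.07, 12.03 and 12.01 in TPA and 10.35, 10.14 and 10.29 in ethanol in EVI1-labelled cells, and 12.23, 12.51 and 12.38 in TPA and 10.19, 9.92 and 10.05 in ethanol in empty vector cells. The treatments stood well apart in both, with rises of 1.78 ± 0.10 in EVI1-labelled cells (SE, adjusted p = 2.99e-09) and 2.32 ± 0.10 in empty vector cells (adjusted p = 1.82e-10). HLA-B, a classical heavy chain, read 11.76, 11.71 and 12.29 in TPA and 11.11, 10.80 and 11.14 in ethanol in EVI1-labelled cells, and 11.69, 11.46 and 11.59 in TPA and 11.04, 10.65 and 10.61 in ethanol in empty vector cells. It rose by 0.90 ± 0.16 in EVI1-labelled cells and 0.81 ± 0.16 in empty vector cells without overlap. HLA-C rose by 0.61 ± 0.14 in EVI1-labelled cells and 0.69 ± 0.14 in empty vector cells. HLA-G rose by 0.71 ± 0.14 in EVI1-labelled cells and 0.69 ± 0.14 in empty vector cells. HLA-F rose by 0.50 ± 0.17 in empty vector cells (adjusted p = 0.0324), and the call was lost when their TPA replicate 1 or 3 or ethanol replicate 1 or 3 was left out (adjusted p up to 0.138). Class I heavy chains are near-identical over long stretches, so these probe sets may read each other's transcripts. B2M, the shared light chain, rose by 0.28 ± 0.07 in EVI1-labelled cells and 0.41 ± 0.07 in empty vector cells, and with the mean of its probe sets the differences were 0.07 ± 0.13 in EVI1-labelled cells and 0.27 ± 0.13 in empty vector cells and did not pass.

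The peptide supply of class I split. PSMB8 and PSMB9, catalytic subunits of the immunoproteasome, fell in both populations. PSMB9 read 8.92, 8.84 and 9.37 in TPA and 9.80, 9.67 and 9.99 in ethanol in EVI1-labelled cells, and its difference was -0.78 ± 0.17 (SE, adjusted p = 0.00152). It read 7.84, 7.34 and 7.24 in TPA and 9.01, 8.71 and 8.81 in ethanol in empty vector cells, a difference of -1.37 ± 0.17 (adjusted p = 8.24e-06). The treatments did not overlap in either population. PSMB8 fell by 0.75 ± 0.11 in EVI1-labelled cells and by 1.24 ± 0.11 in empty vector cells. PSMB10, the remaining immunoproteasome subunit, fell by 0.24 ± 0.075 in empty vector cells (adjusted p = 0.0175) and had a difference of -0.19 ± 0.075 in EVI1-labelled cells (adjusted p = 0.0596). The same EVI1-labelled difference passed with dim genes left out (adjusted p = 0.0209), in the fit of mean probe sets, with quantile normalization again and with an intensity trend (adjusted p up to 0.0499). Only 1 probe set reads PSMB10 alone, so the fit of mean probe sets used the same PSMB10 values. Its empty vector call was lost when empty vector TPA replicate 2 or 3 or ethanol replicate 1 was left out (adjusted p up to 0.0754), and when the compared groups were fitted alone (adjusted p = 0.0518). PSME1, a subunit of the proteasome activator PA28, had differences of -0.02 ± 0.10 in EVI1-labelled cells and -0.23 ± 0.10 in empty vector cells that did not pass. The probe set shared by PSME2, its partner, and MIR7703 fell by 0.46 ± 0.10 in empty vector cells (adjusted p = 0.00191 in a fit over all probe sets) and had a difference of -0.25 ± 0.10 in EVI1-labelled cells (adjusted p = 0.0738).

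The ER aminopeptidases rose. ERAP1 read 8.52, 8.55 and 8.21 in TPA and 6.94, 6.80 and 6.86 in ethanol in EVI1-labelled cells, and 7.84, 7.83 and 8.06 in TPA and 7.03, 6.49 and 6.77 in ethanol in empty vector cells. The rises were 1.56 ± 0.13 in EVI1-labelled cells (SE, adjusted p = 2.44e-07) and 1.15 ± 0.13 in empty vector cells (adjusted p = 4.56e-06) without overlap. ERAP2 rose by 0.47 ± 0.14 in EVI1-labelled cells (adjusted p = 0.0168) and by 1.09 ± 0.14 in empty vector cells (adjusted p = 1.9e-05). The call in EVI1-labelled cells was lost when their TPA replicate 3 (adjusted p = 0.0618) or ethanol replicate 3 (adjusted p = 0.0866) was left out. The 3 ethanol arrays of empty vector cells were below 5.07 for ERAP2. In the transporter, TAP2 fell by 0.57 ± 0.10 in EVI1-labelled cells and 1.03 ± 0.10 in empty vector cells, whereas TAP1, its partner in the heterodimer, had differences of 0.38 ± 0.17 in EVI1-labelled cells (adjusted p = 0.0954) and 0.21 ± 0.17 in empty vector cells (adjusted p = 0.361). Of the loading chaperones, tapasin (TAPBP) rose by 0.48 ± 0.16 and calreticulin (CALR) fell by 0.30 ± 0.09 in empty vector cells. The TAPBP call was lost when empty vector TPA replicate 2 or 3 or ethanol replicate 3 was left out (adjusted p up to 0.118), and the CALR call when empty vector TPA replicate 1 or ethanol replicate 2 was left out (adjusted p up to 0.0868). Neither passed in EVI1-labelled cells, with differences of 0.31 ± 0.16 for TAPBP and -0.14 ± 0.09 for CALR. PDIA3, the thiol oxidoreductase of the loading complex, had differences of 0.19 ± 0.10 in EVI1-labelled cells and 0.20 ± 0.10 in empty vector cells that did not pass. With the mean of its 3 probe sets it rose by 0.39 ± 0.09 in EVI1-labelled cells (adjusted p = 0.00393) and 0.52 ± 0.09 in empty vector cells (adjusted p = 0.000361). NLRC5 had differences of -0.03 ± 0.19 in EVI1-labelled cells and 0.29 ± 0.19 in empty vector cells that did not pass.

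**Figure D2:**
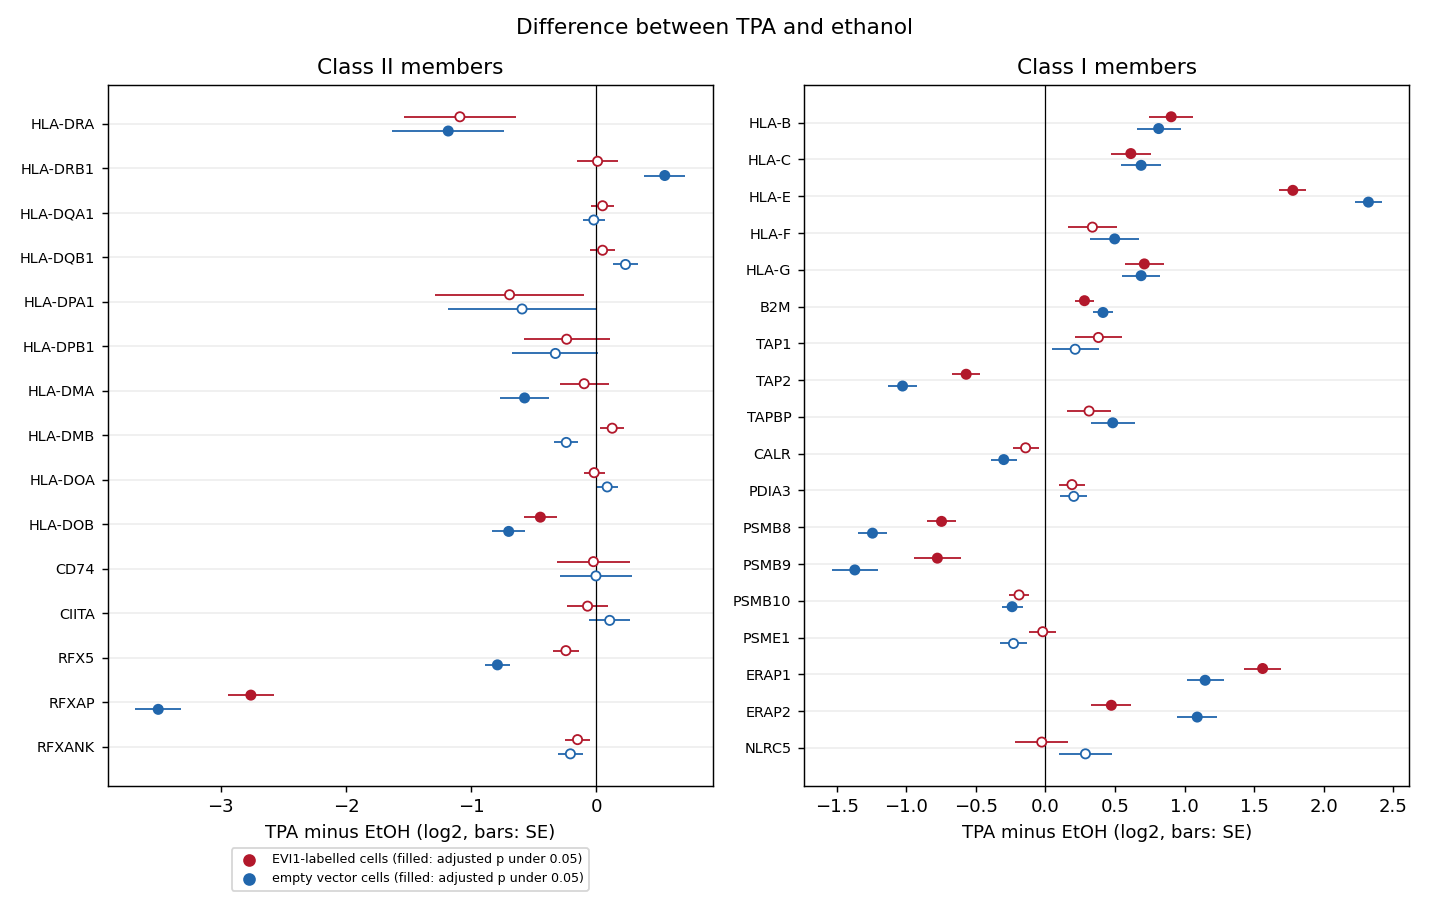
Difference between TPA and ethanol (log2, TPA minus ethanol) for each gene in EVI1-labelled cells and in empty vector cells, class II at left and class I at right, with bars for the SE and filled points for an adjusted p under 0.05. RFXAP falls by 2.76 in EVI1-labelled cells and by 3.50 in empty vector cells and HLA-E rises by 1.78 in EVI1-labelled cells and 2.32 in empty vector cells, while PSMB8, PSMB9 and TAP2 lie left of 0 in both populations.

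EVI1-labelled cells had more HLA-DMA and PSMB9 than empty vector cells under both treatments, and more HLA-DRB1 in ethanol. In ethanol 2 of 15 class II genes and 1 of 18 class I genes were higher and 0 were lower, where 3.27% of all genes differed (1.32% higher, 1.95% lower). After TPA 4 of 15 class II genes were higher and 0 lower, and 6 of 18 class I genes were higher and 1 lower, where 11.2% of all genes differed (5.9% higher, 5.3% lower). The median difference between EVI1-labelled and empty vector cells in ethanol was 0.14 for class II, 0.24 for class I and 0.01 for all genes, and after TPA it was 0.32 for class II, 0.15 for class I and 0.007 for all genes. In ethanol 12 of 15 class II genes and 17 of 18 class I genes had a positive difference, as did 10354 of all 19775 genes. Arrays did not overlap between the populations for 6 class II and 8 class I genes in ethanol (22% of all genes) and for 5 and 9 after TPA (22.4% of all genes).

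HLA-DMA had the clearest population difference of the class II genes. In TPA it read 6.88, 7.07 and 6.93 in EVI1-labelled cells and 5.54, 5.78 and 5.21 in empty vector cells, a difference of 1.45 ± 0.20 (SE, adjusted p = 0.000287). In ethanol it read 7.06, 6.72 and 7.39 in EVI1-labelled cells and 6.49, 5.77 and 5.99 in empty vector cells, a difference of 0.97 ± 0.20 (adjusted p = 0.0131). Every EVI1-labelled array was above every empty vector array of its treatment. The call in ethanol was lost when EVI1-labelled ethanol replicate 1 or 3 or empty vector ethanol replicate 2 or 3 was left out, with an adjusted p of up to 0.0732. HLA-DMB was 0.39 ± 0.10 higher in EVI1-labelled cells after TPA (adjusted p = 0.0156) and had a difference of 0.03 ± 0.10 in ethanol. That call was lost when EVI1-labelled TPA replicate 1 (adjusted p = 0.0563) or empty vector TPA replicate 2 (adjusted p = 0.0615) was left out.

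From the values given above, the EVI1-labelled arrays of HLA-DRB1 were all above the empty vector arrays in ethanol and overlapped them after TPA. The difference in ethanol was 0.86 ± 0.17 (SE, adjusted p = 0.00962), and that after TPA was 0.32 ± 0.17 (adjusted p = 0.281). The call in ethanol was lost when EVI1-labelled ethanol replicate 3 or empty vector ethanol replicate 2 was left out, with an adjusted p of up to 0.0555. Of 5 further probe sets that name HLA-DRB1 together with other genes, 4 were also higher in EVI1-labelled cells in ethanol, by 0.86 to 1.01. HLA-DRA was higher by 1.64 ± 0.45 after TPA (adjusted p = 0.0304), where replicate 2 of EVI1-labelled cells fell below replicate 1 of empty vector cells. In ethanol its difference was 1.54 ± 0.45 (adjusted p = 0.0947), although the arrays did not overlap. That difference passed when the compared groups were fitted alone (adjusted p = 0.0212) and when empty vector TPA replicate 1 was left out (adjusted p = 0.0296). It also passed with the replicate number as a block (1.54 ± 0.25, adjusted p = 0.00476). The TPA call was lost when EVI1-labelled TPA replicate 1 or 3 or empty vector TPA replicate 2 or 3 was left out, with an adjusted p of up to 0.13.

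CD74 read 6.90, 6.38 and 6.81 in EVI1-labelled cells in TPA and 6.19, 5.35 and 5.74 in empty vector cells in TPA. In ethanol it read 6.86, 6.40 and 6.90 in EVI1-labelled cells and 6.22, 6.08 and 4.99 in empty vector cells. The populations did not overlap under either treatment, with differences of 0.94 ± 0.29 after TPA (SE, adjusted p = 0.0542) and 0.96 ± 0.29 in ethanol (adjusted p = 0.112) that did not pass. The difference after TPA passed with the replicate number as a block, which pairs the samples of this comparison (adjusted p = 0.0327). It also passed without a block with dim genes left out (adjusted p = 0.0404), quantile normalization again (adjusted p = 0.0454), an intensity trend (adjusted p = 0.0422) and the compared groups fitted alone (adjusted p = 0.0341), and when empty vector TPA replicate 1 or ethanol replicate 1 or 3 was left out (adjusted p from 0.0109). HLA-DPA1 had differences of 0.92 ± 0.59 after TPA and 1.02 ± 0.59 in ethanol with overlapping arrays. Of the regulators RFX5 was 0.37 ± 0.10 higher after TPA (adjusted p = 0.0301), and with the mean of its probe sets the difference of 0.33 ± 0.11 did not pass. The call was also lost when EVI1-labelled TPA replicate 2 or empty vector TPA replicate 1 or 3 was left out (adjusted p up to 0.123). CIITA, RFXAP and RFXANK did not pass, and RFXAP was 0.79 ± 0.12 higher after TPA when EVI1-labelled TPA replicate 3 was left out (adjusted p = 0.000931).

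Among the class I genes PSMB9 differed most. Its values given above did not overlap between the populations, and it was higher in EVI1-labelled cells by 1.57 ± 0.17 after TPA (SE, adjusted p = 4.65e-05) and by 0.98 ± 0.17 in ethanol (adjusted p = 0.00443). PSMB8 was higher by 0.74 ± 0.11 after TPA (adjusted p = 0.000499) and had a difference of 0.24 ± 0.11 in ethanol (adjusted p = 0.36). TAP2 read 8.89, 8.77 and 9.20 in EVI1-labelled cells and 8.28, 8.11 and 8.20 in empty vector cells in TPA, a difference of 0.76 ± 0.10 (adjusted p = 0.000302). TAP1 read 8.96, 9.11 and 9.79 in EVI1-labelled cells and 8.44, 8.80 and 8.45 in empty vector cells in TPA, a difference of 0.72 ± 0.17 (adjusted p = 0.0126). The TAP1 call was lost when empty vector TPA replicate 1 or 3 was left out (adjusted p up to 0.0525). In ethanol the differences were 0.30 ± 0.10 for TAP2 and 0.56 ± 0.17 for TAP1, without overlap and without passing. TAP1 in ethanol passed when the compared groups were fitted alone (adjusted p = 0.00203) and when EVI1-labelled TPA replicate 3 was left out (adjusted p = 0.00545). PSME1 was higher by 0.57 ± 0.10 (adjusted p = 0.00163) and ERAP1 by 0.52 ± 0.13 (adjusted p = 0.0208) after TPA, and the PSME2 and MIR7703 probe set by 0.57 ± 0.10 (adjusted p = 0.00301). With the mean of its probe sets ERAP1 had a difference of 0.14 ± 0.06 that did not pass, and its call was lost when TPA replicate 1 or 2 of either population was left out (adjusted p up to 0.0888).

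None of the 6 class I molecules passed as higher in EVI1-labelled cells. HLA-E was 0.34 ± 0.10 lower in EVI1-labelled cells after TPA (SE, adjusted p = 0.0382), a call lost when any TPA replicate of EVI1-labelled cells, their ethanol replicate 3, TPA replicate 2 (adjusted p = 0.147, the highest) or 3 of empty vector cells or their ethanol replicate 3 was left out. The differences after TPA were 0.34 ± 0.16 for HLA-B, 0.19 ± 0.14 for HLA-C, 0.07 ± 0.17 for HLA-F, 0.11 ± 0.14 for HLA-G and 0.01 ± 0.07 for B2M, and those in ethanol were between 0.09 and 0.27, none of which passed. TAPBP, CALR, PDIA3, PSMB10, ERAP2 and NLRC5 did not pass under either treatment.

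**Figure D3:**
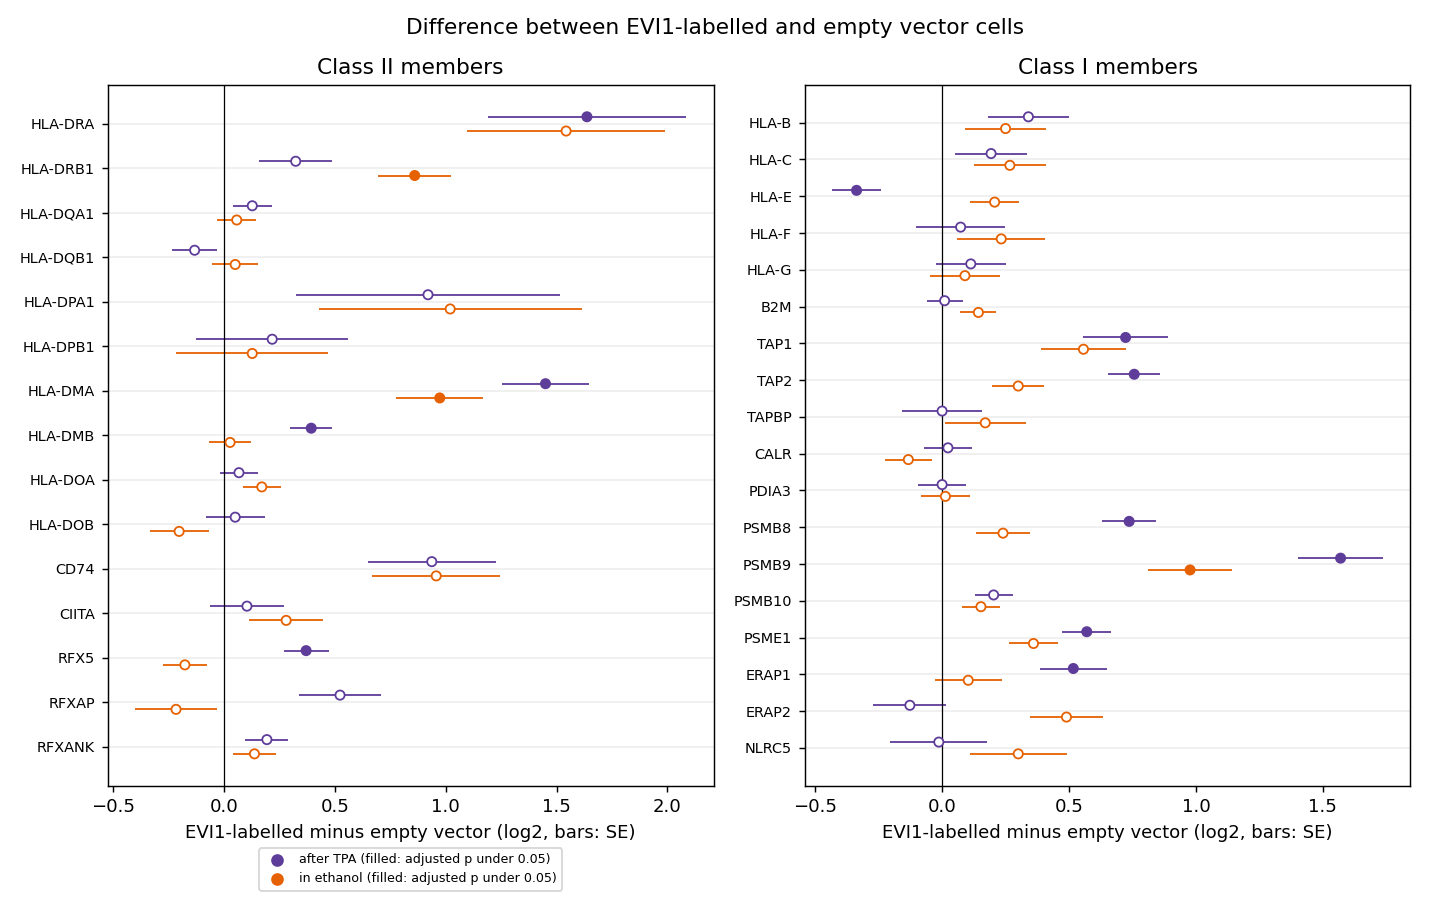
Difference between EVI1-labelled and empty vector cells (log2, EVI1-labelled minus empty vector) for each gene after TPA and in ethanol, class II at left and class I at right, with bars for the SE and filled points for an adjusted p under 0.05. HLA-DMA at 1.45 after TPA and 0.97 in ethanol and PSMB9 at 1.57 after TPA and 0.98 in ethanol are filled.

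Markers of other cell types were set beside these differences. Of 9 measured B lymphoid markers 6 were above 5.07 in a group, while MS4A1, VPREB1 and TCL1A were below it in all 4. The log2 of their summed signal in ethanol was 9.04 to 9.26 in EVI1-labelled cells and 8.62 to 8.83 in empty vector cells, and after TPA 8.67 to 8.88 in EVI1-labelled cells and 8.77 to 8.86 in empty vector cells. PAX5, a B lineage transcription factor, was higher in EVI1-labelled cells by 0.90 in ethanol and 0.68 after TPA, and its differences with TPA were -2.69 in EVI1-labelled cells and -2.47 in empty vector cells, both called. FCRLA, a B cell Fc receptor-like protein, went the other way after TPA, with a called difference of -0.77 between EVI1-labelled and empty vector cells. With TPA 2 of the 9 rose in both populations, CD22 by 1.05 in EVI1-labelled cells and 1.44 in empty vector cells and FCRLA by 0.49 in EVI1-labelled cells and 1.34 in empty vector cells. The other B lymphoid markers did not pass. Of 9 dendritic markers 3 were above 5.07 in a group, with CD1A, CD207, CLEC4C, FCER1A, CCR7 and LAMP3 below it in all 4. Their sum was 7.66 to 7.85 in EVI1-labelled cells and 7.89 to 7.96 in empty vector cells after TPA, and in ethanol 7.60 to 7.68 in EVI1-labelled cells and 7.52 to 7.62 in empty vector cells. Of 10 T and NK cell markers 5 were above 5.07 in a group, with CD3E, CD3G, CD2, ZAP70 and KLRD1 below it in all 4, and of 10 epithelial and fibroblast markers 4 were above it; none of these 20 passed between the populations. Of the 13 myelomonocytic markers 1 was higher and 0 lower in EVI1-labelled cells in ethanol, MPO by 0.84. After TPA 1 was higher, CEBPA by 0.82, and 5 were lower, with differences of -1.70 for CD14, -0.86 for CSF2RA, -0.85 for FCER1G and -0.47 for FCGR1A, and ITGAM between CD14 and CSF2RA. FCGR1A was below 5.07 in all 4 groups. The median over the list was -0.33. The part of these markers in the class II and class I differences was not tested.

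Whether TPA acted differently in the populations was tested as the difference between the responses, EVI1-labelled minus empty vector, to which all 4 groups contribute. None of the 33 genes passed by limma, where 1.98% of all genes did (0.936% higher, 1.05% lower). At an unadjusted p under 0.05 there were 4 class II genes, HLA-DRB1, HLA-DMB, RFX5 and RFXAP, and 6 class I genes, HLA-E, TAP2, PSMB8, PSMB9, ERAP1 and ERAP2, which are 26.7% of class II and 33.3% of class I genes against 12.5% of all genes. In simulated data this comparison recovered 37.5% of differences of 0.5 and 91% of those of 1. Those rates are averages over genes drawn from all genes, whose median SE in this comparison was 0.149. They do not carry over to genes with a wider spread, such as HLA-DRA (SE 0.63) and HLA-DPA1 (SE 0.84). HLA-E had a difference in response of -0.54 with a 95% interval of -0.84 to -0.25 (adjusted p = 0.0631), and RFX5 of 0.55 with an interval of 0.24 to 0.85 (adjusted p = 0.0743). For PSMB9 it was 0.59 (0.09 to 1.10), for PSMB8 0.50 (0.17 to 0.82) and for TAP2 0.46 (0.14 to 0.77). For RFXAP it was 0.74 with a lower bound of 0.18, and when EVI1-labelled TPA replicate 3 was left out it was 1.01 ± 0.17 (SE) and passed (adjusted p = 0.00543). For HLA-DRA the interval was -1.27 to 1.46 and for HLA-DPA1 -1.91 to 1.71. The fit behind these intervals has no replicate block, and it set no narrow bound on either gene. The comparisons of treatment within a population and of population within a treatment share arrays, so the calls of a gene in them are not separate evidence.

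Many genes of both classes had the same array lowest within a group. The order was not counted over all genes, so whether it is particular to these genes was not tested. Replicate 2 was the lowest of 3 for 8 of 15 class II and 11 of 18 class I genes in EVI1-labelled cells in TPA, and for 9 and 12 in ethanol. In empty vector cells it was the lowest for 8 class II and 9 class I genes in TPA, and for 9 and 9 in ethanol. HLA-DRA, HLA-DPA1, HLA-G and B2M were lowest in replicate 2 in 4 of 4 groups. Among class II genes the widest range within a group was 1.76 for HLA-DPA1, 1.72 for HLA-DRA, 1.23 for CD74 and 1.15 for HLA-DPB1. HLA-DMA was lowest in replicate 2 in 2 of 4 groups. In EVI1-labelled cells in TPA replicate 3 was the highest of 3 for 15 of 18 class I genes, with TAP1 at 9.79 against 8.96 and 9.11 in replicates 1 and 2. GBP1, an interferon-induced guanylate-binding protein, read 5.37, 5.14 and 7.29 in the same arrays. The labels name no shared culture day or batch for a replicate number.

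**Figure D4:**
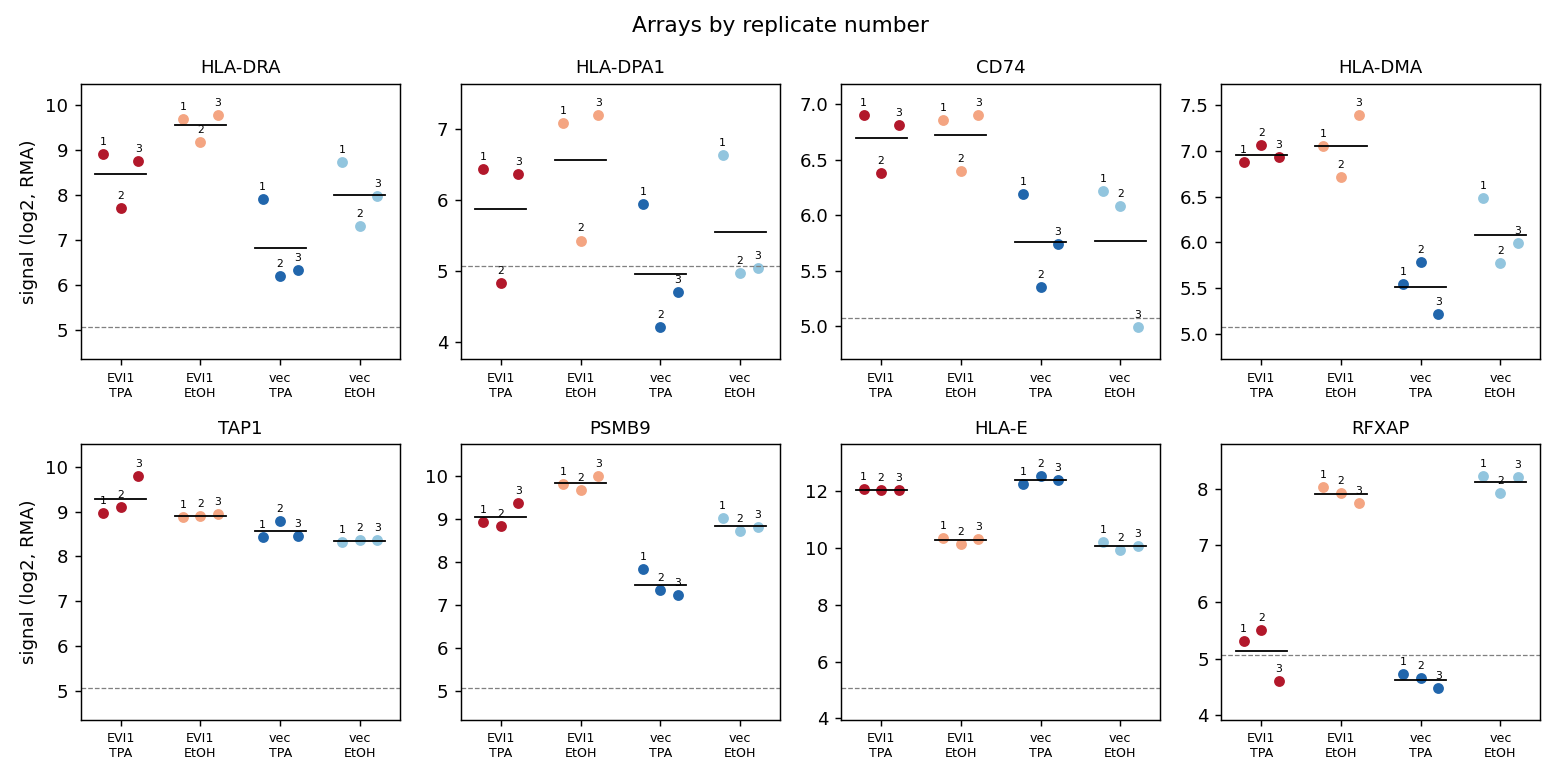
Signal (log2, robust multi-array averaging) of 8 genes on each array, with the replicate number beside each point, a bar at the mean of each group and, where it falls in the panel, a dashed line at 5.07. Replicate 2 is lowest for HLA-DRA and HLA-DPA1 in all 4 groups, and replicate 3 of EVI1-labelled cells in TPA is highest for TAP1 and PSMB9.

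Other probe sets of the called genes were set against those used, where they named no other gene. Probe sets naming several genes were left out of these counts. Among class I genes called with TPA in empty vector cells 29 further probe sets existed, of which 19 had the same call and 10 none. Across the simple comparisons no further probe set of this kind was called in the opposite direction to its called gene. The HLA-E probe sets rose by 1.03 to 2.10 in EVI1-labelled cells and by 1.64 to 2.59 in empty vector cells. Of the differences between populations after TPA, 2 of 9 further class I probe sets and 0 of 2 further class II probe sets had the same call.

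Genes around the pathway were listed by textbook role, and the counts with TPA stand beside 40% of all genes called in EVI1-labelled cells and 43.2% in empty vector cells. Of 17 genes of endosomal processing, which supply and degrade the cargo of class II molecules, 9 rose and 0 fell with TPA in EVI1-labelled cells, and 9 rose and 2 fell in empty vector cells. CTSB, a cathepsin, rose by 2.24 ± 0.15 in EVI1-labelled cells and 2.76 ± 0.15 in empty vector cells (SE), and CTSH by 2.56 ± 0.10 in EVI1-labelled cells and 2.64 ± 0.10 in empty vector cells. CTSS, the cathepsin that degrades the invariant chain and named here after its values were seen, rose by 1.99 ± 0.11 in EVI1-labelled cells and 1.80 ± 0.11 in empty vector cells. CTSV and LGMN fell by 0.36 and 0.34 in empty vector cells. Between the populations 1 gene was lower in EVI1-labelled cells in ethanol, CTSC by 0.37, and 2 after TPA, CTSB by 0.66 and CTSC by 0.56. The list's median difference with TPA was 0.36 in EVI1-labelled cells and 0.48 in empty vector cells.

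Of 16 measured genes of the constitutive proteasome, its activators and its assembly, 6 rose and 1 fell with TPA in EVI1-labelled cells, and 8 rose and 2 fell in empty vector cells. The core subunit PSMA1 rose by 0.67 ± 0.07 in EVI1-labelled cells and 0.78 ± 0.07 in empty vector cells (SE). PSMB6, the constitutive counterpart of PSMB9, rose by 0.44 ± 0.09 in EVI1-labelled cells and 0.56 ± 0.09 in empty vector cells. PSMB6 and PSMB9 thus moved in opposite directions. PSME3, a nuclear activator subunit, fell by 1.09 ± 0.08 in EVI1-labelled cells and by 1.10 ± 0.08 in empty vector cells. None of the 16 passed between the populations under either treatment. Of 14 genes of folding and quality control in the endoplasmic reticulum 5 rose and 4 fell in EVI1-labelled cells and 5 rose and 5 fell in empty vector cells. SPPL2A, a protease that clears the remnant of CD74, rose by 1.77 ± 0.11 in EVI1-labelled cells and 1.87 ± 0.11 in empty vector cells. HM13, which cuts signal peptides such as those shown by HLA-E, rose by 1.33 ± 0.13 in EVI1-labelled cells and 1.52 ± 0.13 in empty vector cells. P4HB fell, with differences of -0.96 in EVI1-labelled cells and -1.16 in empty vector cells, and so did ERP29, with -0.82 in EVI1-labelled cells and -0.91 in empty vector cells. HM13 was lower in EVI1-labelled cells by 1.42 ± 0.13 after TPA (adjusted p = 2e-05) and by 1.23 ± 0.13 in ethanol (adjusted p = 0.000169), and 1 further gene, PDIA4, was lower by 0.33 in ethanol.

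Of 19 measured transcription factors and cofactors that act on class I and class II genes, 7 rose and 7 fell with TPA in EVI1-labelled cells, and 6 rose and 7 fell in empty vector cells. PRDM1, a repressor of CIITA in B cells, rose by 3.45 ± 0.12 in EVI1-labelled cells and 3.96 ± 0.12 in empty vector cells (SE). KAT2B, an acetyltransferase that binds CIITA, rose by 1.40 ± 0.10 in EVI1-labelled cells and 1.60 ± 0.10 in empty vector cells. EZH2, the histone methyltransferase of the polycomb complex, fell by 2.49 ± 0.13 in EVI1-labelled cells and by 3.15 ± 0.13 in empty vector cells. NFYB, a subunit of the factor that binds the Y box, fell by 1.34 ± 0.10 in EVI1-labelled cells and by 1.71 ± 0.10 in empty vector cells. IRF8, an interferon regulatory factor of the myeloid lineage, fell in both, with differences of -1.02 ± 0.16 in EVI1-labelled cells and -1.92 ± 0.16 in empty vector cells, and was 1.08 ± 0.16 higher in EVI1-labelled cells after TPA (adjusted p = 0.000651). In ethanol 1 of the 19 was higher, IRF1, by 0.42 ± 0.10 (adjusted p = 0.0351). After TPA 3 were higher, IRF8, IRF1 by 0.44 ± 0.10 (adjusted p = 0.0109) and EZH2 by 0.52 ± 0.13, and 1 was lower, CARM1 by 0.36 ± 0.09.

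Of 13 measured genes of interferon gamma signalling and its targets 6 rose and 0 fell with TPA in each population, 46.2% of the list and near the 40% in EVI1-labelled cells and 43.2% in empty vector cells of all genes. IFNGR2, a receptor chain, rose by 2.39 ± 0.11 in EVI1-labelled cells and 2.91 ± 0.11 in empty vector cells (SE). GBP1 rose by 2.91 ± 0.41 in EVI1-labelled cells and had a difference of 0.63 ± 0.41 in empty vector cells. Its arrays of EVI1-labelled cells in TPA were spread widely, as given above. CXCL10, a chemokine, rose by 1.55 ± 0.44 in empty vector cells and had a difference of 0.67 ± 0.44 in EVI1-labelled cells. In the difference between the responses 0 of the 13 passed, where 1.98% of all genes did. IFNG itself did not pass in any of the 4 comparisons. Between the populations after TPA 3 of 13 were higher in EVI1-labelled cells, among them GBP1 by 2.26 ± 0.41 (adjusted p = 0.00264) and IRF1, and 2 were lower, IFNGR2 by 0.41 ± 0.11 and IFNGR1 by 0.33 ± 0.07. In ethanol IRF1 alone of these 13 passed.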

How the data were processed

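Total RNA of 12 cultures was labelled by 3 prime in vitro transcription from 250 ng and hybridised to Affymetrix U133 Plus 2.0 arrays with 54675 probe sets, per the labels' protocols. The deposited values are log2 signals from robust multi-array averaging by the authors. The submitters' processing notes name Affymetrix Expression Console 1.3. That method subtracts background, makes the arrays' distributions alike and pools probes, so it measures changes relative to the whole array and compresses dim signals. Of the probe sets 41097 named 1 gene, 1801 several and 11777 none in the platform annotation.

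A mean per group was fitted to 19775 genes with limma 3.58.1 in R 4.3.3, and p-values were adjusted by Benjamini-Hochberg over all of them at a threshold of 0.05 for the 4 simple comparisons and the difference in response. The fit had 8 residual and 5.22 prior degrees of freedom. In simulated data for the comparison of TPA with ethanol in empty vector cells, with 19775 genes, it recovered 63.5% of changes of 0.5, 97% of 1 and 100% of 2, and for the difference in response 37.5%, 91% and 99% in that order of size. Each simulation changed 200 genes at each size, drawn at random from all genes, and no others. In the data 43.2% of genes were called with TPA in empty vector cells, so the recovery simulated for that comparison does not carry over. The replicates are called biological, and the labels do not say whether they come from separate transductions, so p-values measure the spread between these cultures. Replicate numbers were checked as pairs through the correlation of deviations from group means: between the populations in TPA all 3 were above 0.1 (0.415, 0.13 and 0.151), and in no other simple comparison were all 3. The lowest were 0.0913 with TPA in EVI1-labelled cells, 0.0794 with TPA in empty vector cells and 0.0753 between the populations in ethanol. In each simple comparison every same-number correlation was above the highest with another number. The members and the pathway and marker lists were chosen with earlier results of these data known. All listed members with a probe set are described, and of each pathway list up to 2 called genes a direction and comparison, with the largest change. Alternatives were the mean of probe sets, dim genes left out, quantile normalization again, an intensity trend, a fit of the compared groups alone, the replicate block and each array left out in turn. With dim genes left out, those below the median of all gene means, 6.12, were dropped before the fit. That left 9888 of 19775 genes, 9 of 15 class II genes and 17 of 18 class I genes. PSME2 and the other probe sets come from a separate fit over all probe sets.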

Additional observations from a re-analysis of the deposited data

Results flagged for a closer look

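None of the antigen presentation genes, and 3 genes of the lists set beside them, responded to TPA differently in the populations by limma's test of the difference in response, EVI1-labelled minus empty vector. CD14, the monocyte co-receptor for lipopolysaccharide, had a difference in response of -2.06 ± 0.28 (SE, adjusted p = 0.00179). CD1C, a lipid-presenting molecule that is also a dendritic marker, had -0.70 ± 0.12 (adjusted p = 0.00803). CEBPA, a myeloid transcription factor, had 0.93 ± 0.18 (adjusted p = 0.0213). CD14 and CEBPA are in the myelomonocytic marker list, and the part of that shift in the class II and class I values was not tested.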

How the results depend on the processing

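No called difference of the 33 genes changed its sign under the alternatives run, and the calls that were lost are named here or beside their gene. Calls were also gained, 9 of the 33 genes' comparisons with dim genes left out, 6 with the mean of probe sets, 6 with an intensity trend, 5 with the compared groups alone, 4 with quantile normalization again, and 23 over all fits with an array left out. Class I genes called between the populations in ethanol, 1 as reported, were 2 with dim genes left out, 2 with an intensity trend and 3 when the compared groups were fitted alone. The last setting gave 2 class II genes (4 as reported) and 1241 of all genes (2214 as reported) for the populations in TPA, and 945 of all genes (647 as reported) for those in ethanol. The difference in response, 0 as reported, had 1 class II gene (RFX5) and 1 class I gene (HLA-E) with dim genes left out, and 1 class I gene (HLA-E) with quantile normalization again and 1 with an intensity trend; for it a fit of the compared groups alone is the fit reported. The causes were not tested. With the replicate block 4 calls were gained and none lost: CD74 in TPA as given above, HLA-DRA with TPA in EVI1-labelled cells (adjusted p = 0.00323), HLA-DMB with TPA in empty vector cells (adjusted p = 0.0405) and HLA-DRA in ethanol (1.54 ± 0.25, adjusted p = 0.00476). In the last 3 comparisons the labels give the samples only a shared number. Not all of their same-number correlations were above 0.1, though each was above the highest with another number.

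With each array left out in turn, the calls between the populations in ethanol were 0 to 3 for class II, 1 to 3 for class I and 369 to 787 for all genes. Those in TPA were 2 to 5, 5 to 7 and 1532 to 2616. Those of the difference in response were 0 to 2, 0 to 1 and 188 to 681. Those with TPA were 1 to 3, 9 to 12 and 7213 to 7928 in EVI1-labelled cells, and 4 to 7, 11 to 14 and 7860 to 8869 in empty vector cells. The 0 for class II in ethanol came when either EVI1-labelled ethanol replicate 3 or empty vector ethanol replicate 2 was left out, and the 188 and 681 when empty vector ethanol replicate 1 and EVI1-labelled TPA replicate 3 were. Fitting the compared groups alone also ended the calls between the populations in TPA of HLA-DRA, HLA-DMB, RFX5, HLA-E and TAP1 (adjusted p between 0.0752 and 0.141). Dim signal limits HLA-DQA1 and CIITA, and the spread between replicates limits HLA-DRA and HLA-DPA1.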

Other observations

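Class I-like molecules and ligands of NK cell receptors fold like class I but mostly present no classical peptide. Of 15 such genes 5 rose with TPA and 0 fell in EVI1-labelled cells (33.3%, against 40% of all genes called), and 6 rose and 0 fell in empty vector cells (40%, against 43.2%). FCGRT, the neonatal Fc receptor, rose by 2.07 ± 0.17 in EVI1-labelled cells and by 2.64 ± 0.17 in empty vector cells (SE). MR1, which presents vitamin metabolites, rose by 1.87 ± 0.13 in EVI1-labelled cells and by 1.44 ± 0.13 in empty vector cells. PROCR, the protein C receptor, rose by 1.00 ± 0.16 in EVI1-labelled cells and by 1.69 ± 0.16 in empty vector cells. Between the populations after TPA 2 were lower in EVI1-labelled cells, PROCR by 0.56 ± 0.16 and CD1C, which presents lipids, by 0.49 ± 0.08. In ethanol 0 of 15 passed by limma. CD1C is in the dendritic marker list too.

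On chromosome 6 lie 20 of the 33 genes, with 113 other measured genes between them in the order of RefSeq genes. In ethanol 3 of the 20 were higher in EVI1-labelled cells and 0 lower, against 1 and 0 of the 113, and the median differences were 0.24 and 0.02. In TPA 7 of the 20 were higher and 1 lower, against 4 and 2 of the 113, and the medians were 0.27 and -0.003. Among the 5 other measured genes between HLA-DRA and HLA-DPB1, 0 were called in ethanol and 1 in TPA, PSMB8-AS1, whose RefSeq span overlaps that of PSMB8. These counts are a description without a test.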
